A study of Mus musculus with 2 samples.

Results

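Mitosis and G2/M genes were described in cells sorted from YUMMER1.7 melanomas. The set held 40 of the 14654 genes in the deposited count table, and its members were taken by symbol as genes that act in G2 or in cell division. The list was drawn up with earlier results of these data known. YUMMER1.7 is a mouse melanoma line, and the tumors had grown for 11 days in male C57BL/6 mice aged 8 weeks. The hosts were either wild type (WT) or Siah2-/-, which lack the ubiquitin ligase Siah2, whereas the tumor cells carried their own Siah2 in both groups. CD45+ cells, the leukocytes, were sorted, some CD45- cells were added back, and 1 droplet library per genotype was made. The share added back was given as 5 CD45+ cells to 1 CD45- cell in the protocol and as 1000 CD45- cells per 20000 CD45+ cells in the design. The number of mice pooled was not stated. The effects of host genotype, of the pool of tumors and of the library with its lane cannot be told apart, so no test was possible, and every interval given is an exact 95% interval that covers counting error only.

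Before it divides, a cell copies its DNA in S phase, passes through G2 and enters mitosis when the kinase Cdk1 is switched on by its cyclins. Chromosomes are then condensed, attached through kinetochores to the spindle, pulled apart once the anaphase promoting complex marks cyclin B and securin for destruction, and parted into daughter cells by cytokinesis. Transcripts of these genes build up in G2 and mitosis and are low in resting cells, so they are widely used to mark dividing lymphocytes, macrophages and tumor cells. The 40 members were grouped by role as 4 genes of cyclins and Cdk1, 5 of condensin, topoisomerase and the chromosome surface, 8 of the centromere, kinetochore and spindle checkpoint, 3 of the chromosomal passenger complex, 12 of the centrosome and spindle, 3 of the anaphase promoting complex and its ubiquitin steps, 4 of cytokinesis, and the mitotic kinase Pbk. The members lay on 16 chromosomes, and no chromosome held more than 6 of them.

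The genes are also known for shared promoter letters, the cell cycle genes homology region (TTTGAA, or TTTAAA) that the MuvB complexes read and the CCAAT box bound by NF-Y. The stretches below cover 5 members whose transcripts are described throughout. They came from the RefSeq promoters of GRCm38.p6, 5′ to 3′ on the strand of the gene, and were picked after the matches had been seen. Capitals mark TTTGAA or its reverse TTCAAA, and CCAAT or its reverse ATTGG. The stretches were chr9:70421555-70421664 (minus strand) for Ccnb2, chr4:118437344-118437453 (minus) for Cdc20, chr2:164769819-164769928 (plus) for Ube2c, chr10:69352913-69353022 (minus) for Cdk1 and chr11:99024190-99024299 (minus) for Top2a.
Ccnb2: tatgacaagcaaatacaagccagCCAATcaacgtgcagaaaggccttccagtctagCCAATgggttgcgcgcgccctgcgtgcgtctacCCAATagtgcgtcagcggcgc
Cdc20: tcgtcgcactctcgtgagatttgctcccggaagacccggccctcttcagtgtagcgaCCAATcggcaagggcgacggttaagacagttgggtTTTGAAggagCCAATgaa
Ube2c: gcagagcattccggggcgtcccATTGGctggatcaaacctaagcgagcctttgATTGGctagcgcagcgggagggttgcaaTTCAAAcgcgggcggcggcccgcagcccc
Cdk1: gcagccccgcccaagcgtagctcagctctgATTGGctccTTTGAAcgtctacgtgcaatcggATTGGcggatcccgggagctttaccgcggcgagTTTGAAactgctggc
Top2a: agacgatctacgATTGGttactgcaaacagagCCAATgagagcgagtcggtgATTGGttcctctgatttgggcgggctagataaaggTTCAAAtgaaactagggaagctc
Of the 40 members, 33 had a promoter of 300 bases in that set (250 before and 50 after the start site), and Aurkb, Ccna2, Cdca2, Dlgap5, Pbk, Smc4 and Tpx2 had no entry. On either strand, TTTGAA occurred in 24 of the 33 (72.7%) and in 17.9% of all 32851 promoters. TTTAAA occurred in 8 (24.2%), against 13.2% of all. CCAAT occurred in 25 (75.8%), against 37.4%, and at least 2 copies were present in 19 (57.6%), against 11.7%. One of the TTT motifs together with CCAAT was present in 22 (66.7%), against 10.7%. In the stretches above, Ube2c had TTTGAA 29 bases before the start site on the reverse strand, Cdc20 had it 18 bases before, and Cdk1 had copies 71 and 15 bases before. Ccnb2 had copies 167 bases before and 4 bases after the start site, both outside the stretch shown. A match describes letters only and shows no binding.

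The WT library held 4512 cells and the library labelled Siah2-/- 5563, with median depths of 11434.5 and 8699 unique molecular identifiers (UMIs). The lowest cell of the WT library had 6670 UMIs and that of the other 4896, and 34 cell barcodes occurred in both. Siah2 transcripts (ENSMUSG00000036432) were counted in both libraries, 660 UMIs in the WT library and 505 in the other, or 10.2 and 8.55 CPM (UMIs of the gene per 1000000 UMIs) (log2 ratio -0.25, -0.42 to -0.08). Counts at the 3′ end do not check a deletion elsewhere in the gene, so the second library is called by its label. Because deeper cells show more genes, each cell was thinned to 4500 UMIs, and all levels below are CPM after thinning unless stated. A cell with at least 5 of the 40 members detected after thinning is called a high cell, which is a range of a score and not a cell type. A ratio is the log2 of the Siah2-/- library over the WT library, and a member was called lower or higher when it differed by at least 1.5-fold among genes with at least 30 UMIs in both libraries together.

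Cells were gated by marker UMIs into CD8 T, CD4 T, regulatory T (Treg), NK, macrophage, dendritic (DC) and CD45-negative cells, the last split by UMIs of Hmga2 and pigment cell genes. The summed level of the 3 CD3 genes was 4129 and 4325 CPM in CD8 T cells (WT first) and 20.8 and 58.4 CPM in macrophages. The 10 macrophage markers summed to 29670 and 27120 CPM in macrophages and to 391 and 666 CPM in CD8 T cells. In Treg they summed to 1829 CPM in the WT library and 580 CPM in the other, so the WT Treg gate held more macrophage transcript. The 9 stromal markers summed to 4816 and 5280 CPM in the Hmga2-positive CD45-negative gate, where Ptprc, the CD45 gene, was at 5.77 and 15.5 CPM. Without thinning, Ptprc was present in 12.3% of those cells in the WT library and 27.9% in the other. In all, 789 WT and 1242 Siah2-/- cells fell in no gate, of which 362 and 402 carried T and macrophage markers together.

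Levels of the members ranged widely over the gates within each library. Mki67, the chromosome surface protein detected by Ki-67 antibodies, was highest in Treg at 131 CPM (91.9 to 182) in the WT library and 43.3 CPM (24.2 to 71.4) in the other, with wide overlap with CD4 T (103, 53.0 to 179) and CD8 T (97.1, 84.0 to 112) in the WT library. It was at 21.3 CPM in NK, 20.7 in macrophages, 19.2 in Hmga2-positive CD45-negative cells and 12.7 in DC of the WT library. The intervals of those 4 gates overlapped. In the Siah2-/- library Folr2/Fcrls macrophages (43.1 CPM, 28.2 to 63.2) and Treg had overlapping intervals for Mki67, and CD8 T followed at 35.9 (30.1 to 42.4). Monocyte-like cells had the lowest Mki67 of all gates in the Siah2-/- library, 1.10 CPM (0.133 to 3.95), and DC at 1.47 CPM lay within that interval.

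Top2a, the topoisomerase that untangles sister chromatids, was also highest in Treg, at 259 CPM (202 to 326) in the WT library and 130 (94.7 to 174) in the other. CD8 T followed at 200 CPM (181 to 221) in the WT library, with an interval that overlapped that of Treg. In the other, Folr2/Fcrls macrophages (92.9 CPM, 70.2 to 121) and CD8 T (85.2, 76.2 to 94.95) came next, and the interval of Treg overlapped both. Monocyte-like cells were lowest at 4.004 and 0.547 CPM. Cdk1, the kinase that starts mitosis, was highest in CD8 T (159 CPM, 142 to 177) and Treg (153, 110 to 207) in the WT library, which did not differ beyond counting error. In the other library its highest level was in Folr2/Fcrls macrophages, 69.7 CPM (50.2 to 94.2), above CD8 T at 52.7 (45.6 to 60.5) with overlapping intervals. Without thinning, Cdk1 was present in 47.2% of WT and 20.5% of Siah2-/- CD8 T cells (median depths 9727 and 8313 UMIs), and in 4.96% and 3.94% of monocyte-like cells, the lowest share of any gate described here. Whether that lowest share is expression or free RNA was not tested. After thinning, DC were lowest in the Siah2-/- library, with 1 UMI of Cdk1, 1.47 CPM and 0.662% of cells. Monocyte-like cells of that library then had 11 UMIs, 6.02 CPM and 2.71% of cells.

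**Figure D1:**
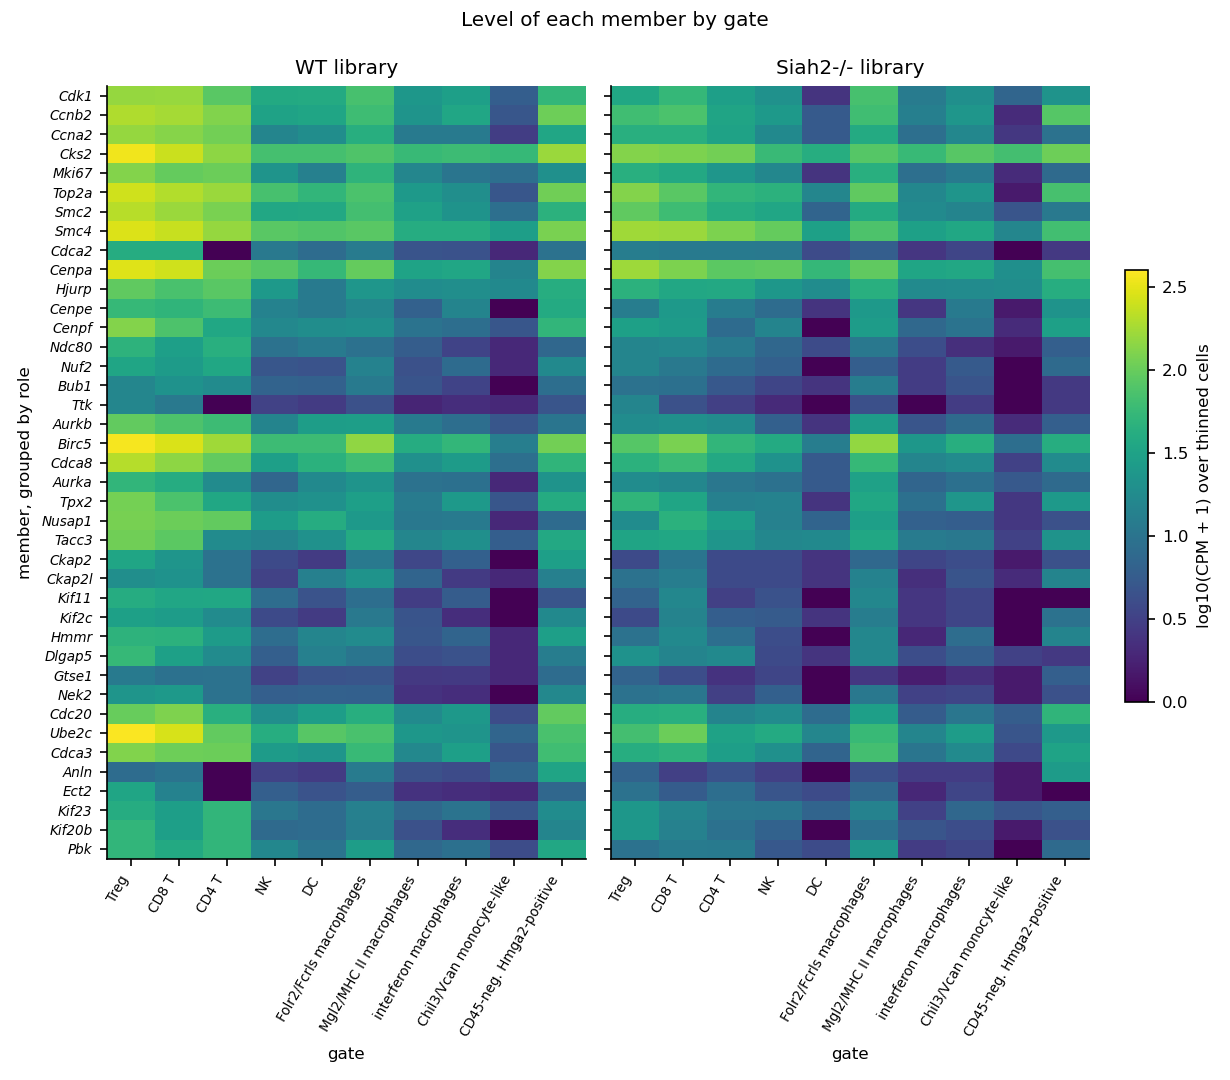
Heat maps of the level of each of the 40 members (1 line each, grouped by role) by gate, with the WT library on the left and the Siah2-/- library on the right, as log10 of CPM plus 1 after thinning, from dark (low) to bright (high). Most members are brightest in Treg and CD8 T of the WT library and darkest in monocyte-like cells, and in the Siah2-/- library the DC column is also dark.

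High cells made up a smaller share of the Siah2-/- library in each of the 7 larger gates, with an interval that held 0 in CD4 T. Over all cells they made up 20.5% of the WT library (926 cells) and 8.77% of the other (488 cells). In CD8 T the share was 50.3% (227 of 451, 45.6 to 55.0) and 20.8% (176 of 848, 18.1 to 23.6), a log2 ratio of -1.28 (-1.57 to -0.99). In Treg it was 59.0% (36 of 61) and 20.8% (16 of 77), -1.51 (-2.45 to -0.62). The interval of both differences lay below 0, although over all barcodes with at least 2000 UMIs that of Treg held 0 (-0.59, -1.56 to 0.31). In CD4 T, of which the WT library had only 26, the share was 26.9% and 10.5% (33 of 315), -1.36 with an interval from -2.56 to 0.06 that held 0.

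NK cells had 12.1% high cells (47 of 387) in the WT library and 5.71% (36 of 631) in the other, -1.09 (-1.76 to -0.43). This NK ratio depended on the limit of 5 members, since it was -0.24 (-0.65 to 0.18) at a limit of 3 and -0.32 (-1.15 to 0.53) at 10. Macrophages had 11.2% (214 of 1913) and 4.27% (92 of 2153), -1.39 (-1.76 to -1.03). DC had 17.9% (22 of 123) and 1.33% (2 of 151), -3.76 (-6.89 to -1.73). Hmga2-positive CD45-negative cells had 26.4% (183 of 693) and 10.1% (13 of 129), -1.39 (-2.33 to -0.58). Without the 5% of all cells of each library with most UMIs, 78 and 2 cells of this gate were high. The interval then held 0 (-1.26, -4.33 to 0.64). The Hmga2-low CD45-negative gate held 69 WT and 17 Siah2-/- cells, of which 5 and 4 were high. Exactly 4 or 5 members were detected in 8.204% of WT and 5.07% of Siah2-/- CD8 T cells, in 3.40% and 1.63% of macrophages, and in 4.39% and 2.69% of NK cells.

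**Figure D2:**
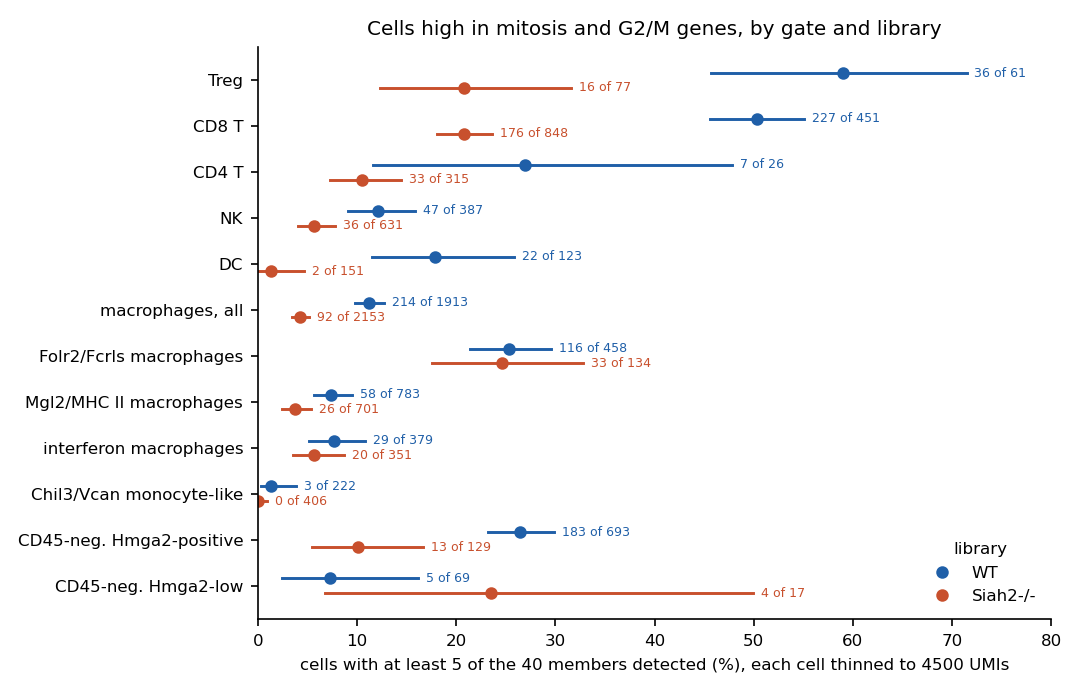
Percent of cells with at least 5 of the 40 members after thinning, by gate, for the WT and the Siah2-/- library, with exact 95% intervals that cover counting error only. The WT library is higher in CD8 T (50.3% against 20.8%) and macrophages (11.2% against 4.27%), whereas Folr2/Fcrls macrophages have 25.3% and 24.6%.

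The depth of the cells moved with these shares. With both libraries held to cells of at least 6670 UMIs, CD8 T had 50.3% and 26.7% high cells (-0.91), Treg 59.0% and 29.3% (-1.01), macrophages 11.2% and 5.23% (-1.10), and NK 12.1% and 7.87% (-0.63, -1.31 to 0.04). CD4 T then had 26.9% and 18.9% (-0.51), DC 17.9% and 1.64% (-3.45), and Hmga2-positive CD45-negative cells 26.4% and 10.1% (-1.39). The WT count table held no cell below that depth. When all barcodes of the unfiltered matrices with at least 2000 UMIs were gated and thinned to 2000, the shares were 19.7% and 13.0% in CD8 T, 10.4% and 6.91% in Treg, 3.04% and 2.74% in NK, 5.78% and 2.88% in macrophages, and 2.75% and 3.77% in CD4 T. The CD4 T difference thus turned its direction and the NK difference nearly closed.

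High cells were also the deeper cells in most gates, though not in the Hmga2-positive CD45-negative cells of the Siah2-/- library or the Hmga2-low ones of the WT library. Among CD8 T the median depth was 11889 UMIs in high cells and 8586.5 in the others of the WT library, and 13800 and 7626.5 in the Siah2-/- library. Within depth classes the CD8 T share rose from 27.3% at 6670 to 9000 UMIs through 52.3% and 70% to 94.6% at 18000 or more in the WT library. The Siah2-/- library rose from 7.48% through 20.8% and 44.5% to 79.7% over the same classes. The ratio was -1.87 in the lowest class and -0.25 (-0.88 to 0.41) in the highest. Macrophages had 3.06%, 7.99%, 17.2% and 42.3% in the WT library and 0.862%, 2.29%, 5.30% and 29.9% in the other, so the WT share was higher in each class. Their ratio was -1.83 in the lowest class and -0.50 in the highest, where the interval held 0 (-1.07 to 0.06). The part of depth in the difference between libraries was not tested beyond these values.

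**Figure D3:**
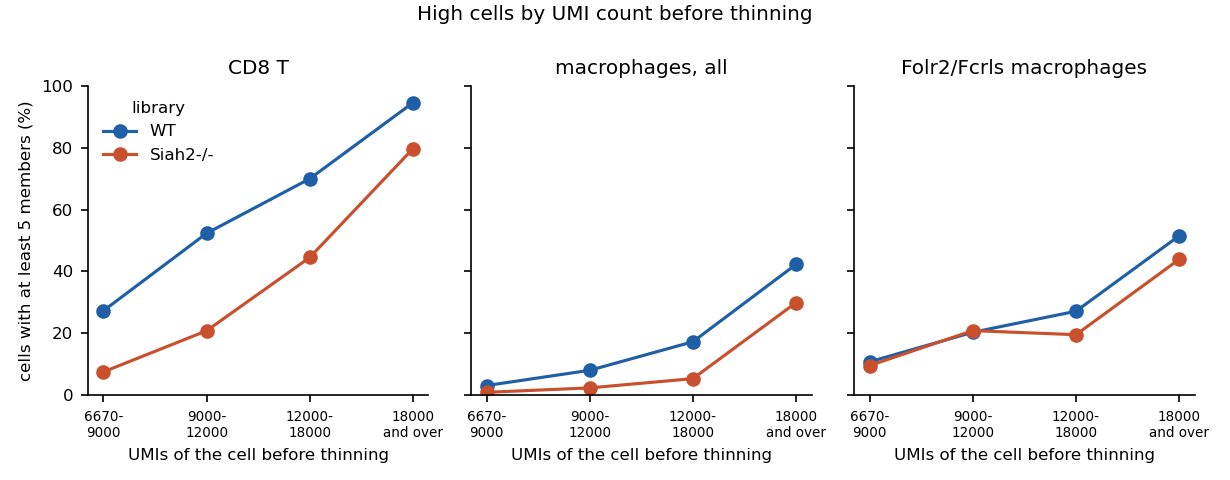
Percent of high cells within 4 classes of UMIs per cell (before thinning, from 6670 UMIs) in the WT and the Siah2-/- library, in CD8 T, all macrophages and Folr2/Fcrls macrophages. In CD8 T the shares run from 27.3% to 94.6% in the WT library and from 7.48% to 79.7% in the other, and in Folr2/Fcrls macrophages the libraries lie close to each other.

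In CD8 T cells, which kill tumor cells, the members were lower together. Of the 38 members with at least 30 UMIs, 37 were called lower in the Siah2-/- library and 0 higher, against 11.8% of the 8191 genes called lower in this gate. The median ratio was -1.29 over the members and -0.06 over all genes tested. Markers of other cells were higher in the Siah2-/- cells of this gate, with 391 and 666 CPM over the 10 macrophage markers, 661 and 1107 over the 8 markers of the interferon state, and 4273 and 5595 over the 7 of the monocyte-like state. Their part in the result was not tested. The 1 measured member not called was Smc4, the condensin ATPase subunit, at 240.0 CPM in the WT library and 161 in the other (-0.58, -0.75 to -0.40). Of its UMIs, 78.4% lay in cells with at least 5 other members in the WT library and 45.4% in the other, the lowest shares of any member in this gate. The members that did not reach 30 UMIs were 1 of the centrosome and spindle and 1 of cytokinesis. Over all barcodes with at least 2000 UMIs, thinned to 2000, 18 of 36 were called lower, against 6.13% of genes there, with a median of -0.60.

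Among cyclins and Cdk1, Cdk1 was at 159 CPM in the WT library and 52.7 in the other (-1.59, -1.85 to -1.33). Ccnb2, the cyclin B2 that partners it, was at 176 and 72.3 CPM (-1.28). Cks2, the small subunit that binds Cdk1, was at 244 and 121 CPM (-1.02). All 4 genes of this group were called lower. In the chromosome group, Top2a had 200 and 85.2 CPM (-1.23), Mki67 had 97.1 and 35.9 CPM (-1.44, -1.76 to -1.11), and Cdca2, which brings a phosphatase to chromatin, had 39.9 and 10.7 CPM (-1.89).

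The chromosomal passenger complex, which corrects faulty attachments, held the member with the lowest ratio in CD8 T. The median of the group, -1.30, was near the -1.29 of all members. Its kinase Aurkb was at 74.9 CPM in the WT library and 19.4 in the other (-1.95, -2.37 to -1.54). Birc5, or survivin, was the most abundant member in the WT library, at 285 CPM, and was at 120 CPM in the other (-1.25), where Smc4 was highest. Cdca8, or borealin, was at 145 and 59.0 CPM (-1.30). All 3 of these genes were called lower.

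At the centromere, Cenpa, the histone H3 variant that marks it, had 257 and 122 CPM (-1.08), and Hjurp, its chaperone, had 70.5 and 35.1 CPM (-1.005). Ndc80, which grips microtubules at the kinetochore, had one of the smallest ratios, 28.6 and 15.5 CPM (-0.89). All 8 genes of that group were called lower. The anaphase promoting complex genes followed, with its activator Cdc20 at 124 and 42.5 CPM (-1.54) and its ubiquitin conjugating enzyme Ube2c at 278 and 104 CPM (-1.43, -1.61 to -1.24).

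Of the spindle genes 11 were measured and called lower, among them Nusap1, which bundles microtubules, at 103 and 45.1 CPM (-1.19), and Tacc3, which stabilises kinetochore fibres, at 87.2 and 34.9 CPM (-1.32). The smallest ratio in this group belonged to Ckap2l, another spindle protein, at 20.2 and 11.8 CPM (-0.78). The cytokinesis kinesins Kif23 and Kif20b had 28.1 and 14.2 CPM (-0.99) and 28.6 and 12.8 CPM (-1.15). Pbk, a kinase active in mitosis, had 37.0 and 11.0 CPM (-1.75).

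**Figure D4:**
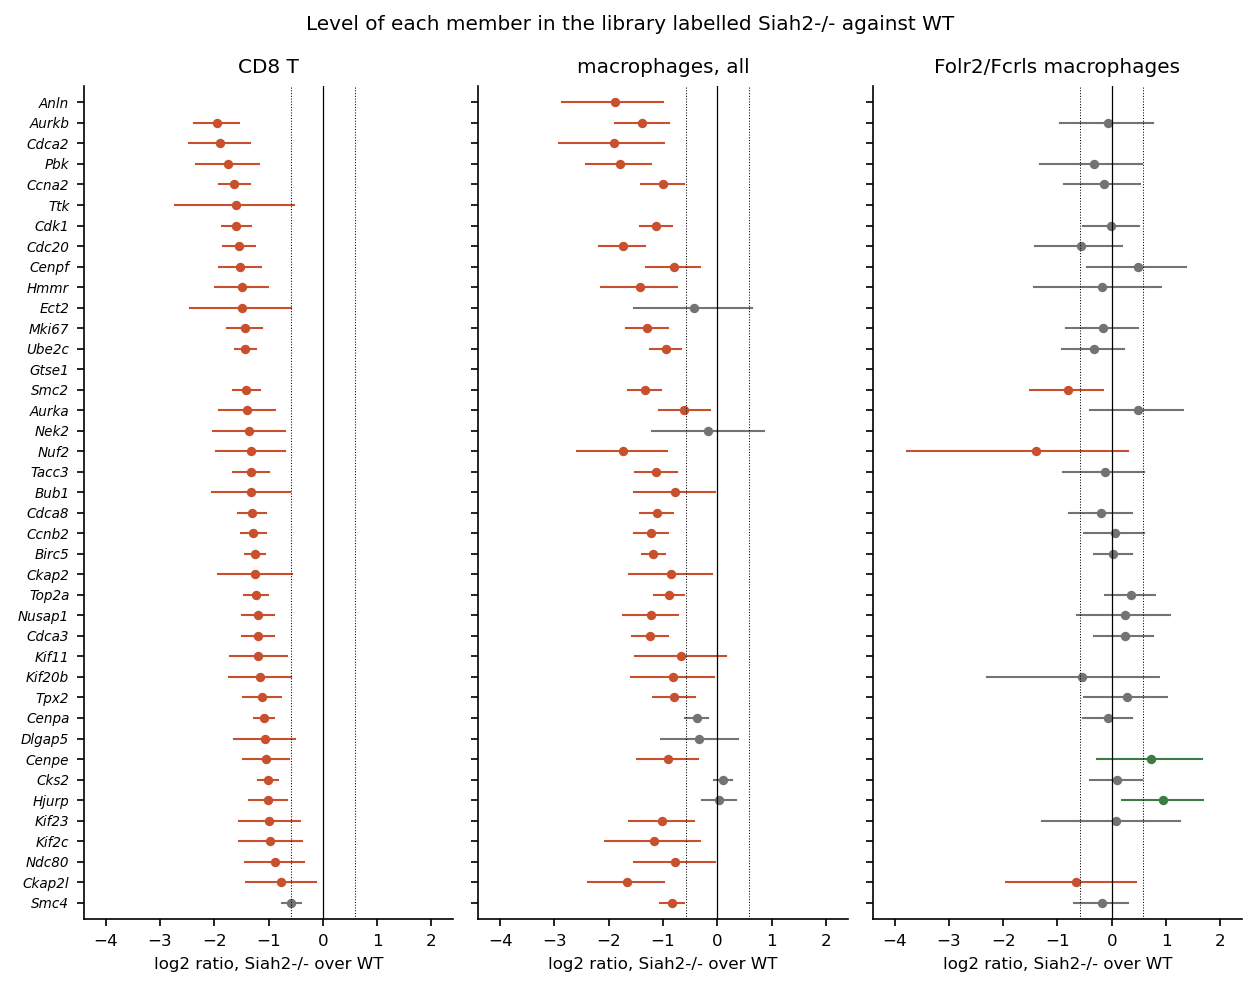
Log2 ratio of the Siah2-/- over the WT library for each member with at least 30 UMIs, in CD8 T, all macrophages and Folr2/Fcrls macrophages, with exact 95% counting intervals. Members called lower are red, called higher green and the others grey, and dotted lines mark a 1.5-fold difference. Nearly all CD8 T members lie left of the line (37 of 38), and most Folr2/Fcrls members lie between the lines.

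In Treg, the T cells that restrain immune responses, all 20 members with enough UMIs were called lower, against 16% of all 2815 genes tested. Markers of other cells moved with this gate, since the 6 Mgl2 and MHC class II markers summed to 8634 CPM in the WT library and 1810 in the other, the 10 macrophage markers to 1829 and 580, and the 3 CD3 genes to 2160 and 3602. Their part in the result was not tested. The median of the 20 members was -1.63, and that of all genes was -0.0026. Ube2c was at 386 CPM in the WT library and 66.4 in the other (-2.54, -3.26 to -1.88). Nusap1 was at 117 and 17.3 CPM (-2.75) and Birc5 at 368 and 80.8 CPM (-2.19). Mki67 was lower by -1.60 (-2.57 to -0.69), Top2a by -0.99 and Cdk1 by -2.14. The smallest ratios were those of Smc4 (-0.78), Cenpa (-0.84) and Hjurp (-0.98). Over the barcodes with at least 2000 UMIs, 10 of 14 were called lower, against 9.36% of genes there, with a median of -0.76.

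In CD4 T, 13 of 17 measured members were called lower, against 17.7% of 4956 genes, with a median of -1.63. The 26 WT cells of this gate also carried more DC markers (513 against 49.4 CPM over 10 genes), Mgl2 and MHC class II markers (10690 against 1802) and macrophage markers (1026 against 677), and less of the 3 CD3 genes (3000 against 4943). The part of these cells in the result was not tested. Mki67 had 12 UMIs or 103 CPM in the WT library and 32 UMIs or 22.6 CPM in the other (-2.18, -3.18 to -1.09). The members not called were Smc4 (154 and 123 CPM), Cenpa (103 and 86.8 CPM), Cks2 (145 and 112 CPM) and Tacc3 (17.1 and 21.9 CPM). With 26 cells in the WT library, these ratios had wide intervals, and over the barcodes with at least 2000 UMIs the median was -0.02 and 0 of 10 members were called lower, against 7.54% of genes there. The CD4 T result was therefore seen in the cells of the count table but not in the wider set of barcodes.

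In NK cells, innate lymphocytes that kill without a rearranged receptor, most members did not reach the fold. Of 26 measured, 7 were called lower and 0 higher, against 4.19% of the 7520 genes, and the median was -0.28 against 0.07 over all genes. Some markers of other cells were higher in the Siah2-/- cells of this gate. The 3 CD3 genes summed to 31.0 and 76.1 CPM, the 4 Treg markers to 64.9 and 133, and the 6 Mgl2 and MHC class II markers to 588 and 1076. The 9 stromal markers went the other way (24.1 and 19.7). The part of these markers in the result was not tested. Aurkb (13.8 and 5.28 CPM, -1.38) and Pbk (14.9 and 4.23 CPM, -1.82) had the lowest ratios. Nusap1 (26.4 and 13.0 CPM) and Cdk1 (36.8 and 19.7 CPM) were also called lower, at -1.02 and -0.90. Top2a had 69.5 and 45.8 CPM (-0.60, -0.97 to -0.23). Cenpa had 83.3 and 91.6 CPM, and Smc4 85.6 and 97.2 CPM, both with intervals that held 0. Mki67 had 21.3 and 15.1 CPM (-0.49, -1.16 to 0.19). With the same lowest depth in both libraries, the median of the members was 0.04, and over the barcodes with at least 2000 UMIs it was -0.11 with 3 of 21 called lower, against 3.55% of genes there.

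The NK cells that were high had more members each in the Siah2-/- library. The median high NK cell held 9 members in the WT library and 16 in the other. For each member, its level was also measured in the cells with at least 5 of the other members, so that the member itself did not choose them. Inside those cells the median ratio over 22 NK members was 0.58, and 11 intervals lay above 0. Ube2c, for example, had 1.36 UMIs per such cell in the WT library and 2.75 in the other (1.01, 0.55 to 1.49). Of the high NK cells, 24 of 47 had 5 to 9 members in the WT library and 6 of 36 in the other. At a limit of 10 members, and over the barcodes with at least 2000 UMIs (-0.15, -0.91 to 0.61), the interval of the NK share held 0.

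Macrophages as a whole had 38 measured members, of which 32 were called lower and 0 higher, against 9.05% of 10132 genes. The median was -1.01, and -0.05 over all genes. Birc5 was at 64.4 CPM in the WT library and 28.4 in the other (-1.18), Cdk1 at 33.2 and 15.2 CPM (-1.13), and Mki67 at 20.7 and 8.46 CPM (-1.29). Cdca2 (5.00 and 1.34 CPM, -1.90), Anln, a scaffold of the cytokinetic ring (5.34 and 1.45 CPM, -1.89), and Pbk (11.5 and 3.30 CPM, -1.80) had the lowest ratios. Cks2, at 61.7 and 66.2 CPM (0.10, -0.07 to 0.27), and Hjurp, at 18.7 and 19.1 CPM (0.03, -0.28 to 0.34), had intervals that held 0. For those 2 genes the share of UMIs in cells with at least 5 other members was small, 38.6% and 14.5% for Cks2 and 32.9% and 14.1% for Hjurp.

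The macrophages fell into 5 states by marker scores, and their mix differed between the libraries. Cells that scored highest for Folr2, Fcrls and other genes of resident macrophages were 23.9% of WT and 6.22% of Siah2-/- macrophages, and 54.2% and 35.9% of the high macrophages. In 22.4% of macrophages the top 2 scores lay within 0.2 SD of each other. When both libraries were given the state shares of the WT library, the high cells were 11.2% and 8.63% (-0.37), and with the shares of the Siah2-/- library 8.43% and 4.27% (-0.98). The weighting was added after the values had been seen.

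Folr2/Fcrls macrophages had nearly the same share of high cells in both libraries, 25.3% (116 of 458) and 24.6% (33 of 134), with a ratio of -0.04 (-0.64 to 0.53). Of their 28 measured members, 3 were called lower, against 11.7% of 6505 genes, and 2 higher, against 10.5%. The median was -0.06. Nuf2, a kinetochore partner of Ndc80, was at 13.1 and 4.98 CPM (-1.40, -3.76 to 0.30), and Smc2, the partner of Smc4, at 66.5 and 38.1 CPM (-0.80, -1.51 to -0.16). Hjurp was higher in the Siah2-/- library, at 22.3 and 43.1 CPM (0.95, 0.20 to 1.67). Cenpe, a kinetochore motor, had 15.04 and 24.9 CPM (0.73, -0.27 to 1.66). Mki67 (48.0 and 43.1 CPM), Top2a (72.8 and 92.9), Cdk1 (69.9 and 69.7) and Birc5 (147 and 149) had intervals that held 0. All 40 members together had a ratio of -0.02 (-0.13 to 0.09) in this state.

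Mgl2/MHC class II macrophages had 7.41% (58 of 783) and 3.71% (26 of 701) high cells, -1.0 (-1.72 to -0.31), with 12 of 22 measured members called lower against 5.48% of genes. The interval of that share held 0 at a limit of 3 members (-0.45, -0.92 to 0.02) and over the barcodes with at least 2000 UMIs (-0.74, -1.54 to 0.02), and 4 members were lower by 2-fold or more, against 1.16% of genes at that fold. There Cdc20 had 16.5 and 4.76 CPM (-1.79), whereas Cks2 (55.6 and 55.8 CPM) and Cenpa (31.5 and 33.3 CPM) did not differ beyond counting error. Interferon macrophages had 7.65% (29 of 379) and 5.70% (20 of 351), -0.43 (-1.32 to 0.45), with 5 of 18 called lower against 7.27%. That count was 1 of 36 without thinning, against 5.49% of genes there, and 1 of 10 over the barcodes with at least 2000 UMIs, against 7.19%. It was 2 of 18 with the same lowest UMI count, against 6.78%. Without the 5% of cells of each library with most UMIs it was 9 of 17, against 8.12%. Monocyte-like cells, which express Chil3 and Vcan, had 3 high cells of 222 (1.35%) and 0 of 406, which allows up to 0.905%, and 1 of 4 measured members was called lower against 9.68%. Whether the ratio of the Folr2/Fcrls state differs from those states was not tested.

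DC, which carry antigen to T cells, had few counts, and 5 of 6 measured members were called lower, against 11.1% of 4240 genes. Ube2c had 46 UMIs or 83.1 CPM in the WT library and 10 UMIs or 14.7 CPM in the other (-2.50, -3.65 to -1.49). Birc5 had 59.6 and 11.8 CPM (-2.34), and Top2a 50.6 and 14.7 CPM (-1.78). Cdk1 had 21 UMIs and 1 UMI, a ratio of -4.69 with a counting interval of -10.06 to -2.05. Cenpa alone of the measured members was near equal, at 54.2 and 53.0 CPM. Over the barcodes with at least 2000 UMIs, 1 of 3 was called lower, against 10.3% of genes there, with a median of -0.50. The 10 macrophage markers summed to 918 CPM in WT DC and 2957 CPM in the other, and their part in these values was not tested.

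The Hmga2-positive CD45-negative gate, in which stromal collagens and Hmga2 stand beside each other, had 32 measured members. Of these, 28 were called lower, against 13% of 8131 genes, with a median of -1.03. Markers of other cells were higher in the Siah2-/- cells of this gate, with 251 and 500 CPM over the 10 macrophage markers, 417 and 963 over the 6 Mgl2 and MHC class II markers, and 14.1 and 56.9 over the 3 CD3 genes. Their part in the result was not tested. Birc5 was at 110 CPM in the WT library and 41.3 in the other (-1.41), Ube2c at 71.2 and 24.1 CPM (-1.56), and Cdk1 at 52.0 and 20.7 CPM (-1.33). Ckap2, a spindle protein, had 89 UMIs and 2 UMIs (-3.05, -6.12 to -1.16). Hjurp (40.4 and 41.3 CPM), Ckap2l (12.5 and 13.8 CPM), Anln (32.4 and 25.8 CPM) and Ccnb2 (106 and 81.0 CPM) were not called. The median depths in this gate were 24211 and 26611 UMIs. High cells had medians of 34098 UMIs in the WT library and 26061 in the other, and the remaining cells 22360.5 and 27044.5. Without thinning the share of high cells differed by -0.06 only, while the median over members was -1.56. Without the 5% of cells with most UMIs in each library, 10 of 22 members were called lower, against 19.9% of genes there, and the median was -0.57.

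Both parts of a level, how many cells were high and how much each held, were then set apart. Over all cells, in cells with at least 5 other members, the median ratio of the 40 members was 0.01, with 6 intervals below 0 and 3 above. In CD8 T it was -0.11 over 38 members, with 7 intervals below 0 and 0 above, and in macrophages -0.03 over 36, with 3 below and 2 above. The intervals of most members thus held 0 inside such cells. Cdk1 in CD8 T had 1.33 UMIs per such cell in the WT library and 1.03 in the other (-0.37, -0.64 to -0.10), and Aurkb 0.642 and 0.352 (-0.86, -1.32 to -0.43), so both were also lower inside. Birc5, with 2.51 and 2.53 UMIs, was not. In the remaining cells the median was -0.46 over 12 members in CD8 T and -0.52 over 20 in macrophages. The medians were ordered the other way in CD4 T, with -0.40 inside over 14 members and 0.20 outside over 4, and in Treg, with -0.24 over 20 and 0.76 over 2. Every interval outside held 0 in these 2 gates. Medians inside and outside cover different members, so their order does not compare the same genes. In DC both medians were above 0, at 0.24 inside over 3 members and 0.91 outside over 3. Only 2 Siah2-/- DC were high cells. The intervals inside all held 0, and 1 outside lay above 0. In Hmga2-positive CD45-negative cells they were -0.04 over 31 and -0.54 over 8, and in NK, outside such cells, the median was 0.13 over 8.

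**Figure D5:**
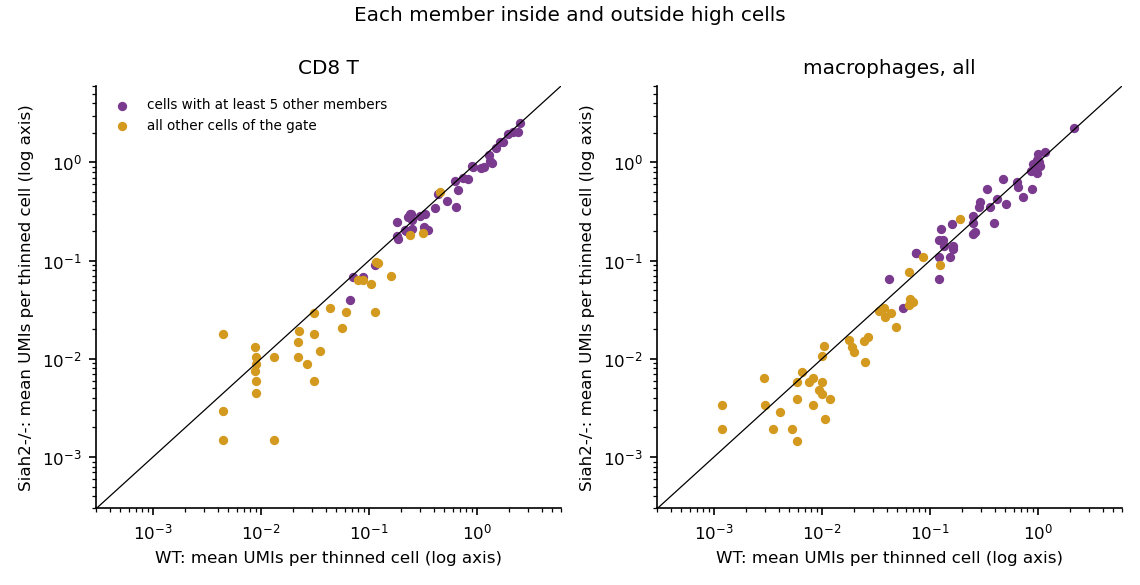
Mean UMIs of each member per thinned cell in the WT library (horizontal, log axis) and the Siah2-/- library (vertical, log axis), in CD8 T on the left and all macrophages on the right, for cells with at least 5 other members (purple) and all other cells of the gate (yellow), with a line of equal values. The purple points lie close to the line (median log2 ratio -0.11 in CD8 T and -0.03 in macrophages), and most of the yellow points lie below it.

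Members differed in how far they were bound to high cells. Over all cells, 95.5% of the UMIs of Ccna2, or cyclin A2, lay in cells with at least 5 other members in the WT library and 87.8% in the other. Hmmr, a spindle protein, had 95.5% and 91.7%, and the checkpoint and centromere protein Cenpf 94.7% and 91.1%. At the other end, Smc4 had 59.6% and 32.6%, Hjurp 54.8% and 29.8%, and Cks2 67.7% and 39.3%. Cks2 and Hjurp were the members with ratios above 0 in macrophages, and Smc4 was among those above 0 in NK. In all other cells, 33 members had enough UMIs, and their median ratio was -0.41, with 11 intervals below 0 and 4 above.

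Free RNA was measured in barcodes of 1 to 100 UMIs. There the members summed to 1696 CPM in the WT library and 1148 in the other (-0.56, -0.61 to -0.52), while over thinned cells they summed to 1351 and 716 CPM. Cks2 was at 184 and 128 CPM in such barcodes, Birc5 at 151 and 94.1 CPM, and Mki67 at 34.6 and 21.7 CPM. The free RNA was thus lower in members in the Siah2-/- library too, and its part in the cells outside the high class was not tested.

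A pair of further lists, chosen with earlier results of these data known, was counted in the same gates. Of 53 other G2/M genes, such as Ccnb1 and Plk1, 48 of 49 measured were called lower in CD8 T (median -1.14), 16 of 18 in Treg, 31 of 46 in macrophages (-0.93) and 7 of 28 in NK (-0.21), and 3 of 28 in Folr2/Fcrls macrophages. The shares of all genes called lower in these gates were, in the same order, 11.8%, 16%, 9.05%, 4.19% and 11.7%, so the count in Folr2/Fcrls macrophages was near the background. Of 44 S phase genes, which copy DNA, 40 of 44 were called lower in CD8 T (-1.12), 14 of 20 in Treg, 31 of 43 in macrophages (-0.89), 18 of 37 in NK (-0.57) and 26 of 33 in Hmga2-positive CD45-negative cells (-1.29, against 13% of genes). In Folr2/Fcrls macrophages 8 of 35 were called lower (-0.11), against 11.7% of genes, and 3 higher, against 10.5%. In NK cells 7 of 26 members had been called lower, and the difference between the lists was not tested.

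Among the cells with at least 5 S phase genes, the share that also had at least 5 members was compared. It was 61.3% (55.8 to 66.5) in WT CD8 T and 43.96% (38.5 to 49.6) in the other library, and 25% (18.5 to 32.5) and 12.8% (8.61 to 18.1) in NK, with intervals that did not overlap. No other limit and no equal lowest depth was tried for these shares, and the share of high NK cells had moved with both. In Treg it was 82.1% and 58.3% with overlapping intervals. In macrophages it was 29.7% (25.6 to 34.1) and 26.4% (20.8 to 32.7), near equal. In Folr2/Fcrls macrophages the order was the opposite, 40.5% (33.5 to 47.9) and 59.1% (43.3 to 73.7), with overlapping intervals.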

How the data were processed

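Each library was 10x 3′ v2, 1 per genotype. The authors ran bcl2fastq and Cell Ranger on mm10/GRCm38 (versions not given in the sources used here), removed barcodes at both extremes of detected genes or with over 10% mitochondrial transcripts, and deposited raw UMI counts per gene and cell. They also deposited natural log values of counts scaled to 10000 per cell, used here only to define the cells. Unfiltered matrices of counts, deposited too, gave barcodes with 1 to 100 UMIs. Here 4768 WT and 5886 Siah2-/- barcodes reached their library's lowest cell.

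Cells were gated by UMIs of marker genes (minimums of 5 for T, NK and DC, 16 for macrophages, 10 for CD45-negative cells), set after the files were seen. Barcodes passing both T and macrophage minimums stayed out of gates, and no doublet caller was run. Cells were thinned to 4500 UMIs with a fixed seed, in Python 3.11.15 with NumPy 2.4.6 and SciPy 1.17.1. Intervals were Clopper-Pearson for shares, exact Poisson for levels and exact conditional binomial for ratios. No p-value was computed, as each genotype had 1 library. Scripts were tested on simulated data. The members and lists were chosen with earlier results of these data known. Named genes were, per gate, the 2 most abundant of each role, the 3 lowest and 3 highest ratios, and Mki67, Top2a and Cdk1, with fewer printed in small gates. Alternatives changed the depth, thinning, fold, UMI minimum, marker minimums, limit of a high cell, the draw and the scaling. Values of 1 macrophage state are not reported here.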

Additional observations from a re-analysis of the deposited data

Results flagged for a closer look

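The Hmga2-low CD45-negative cells went the other way from the 7 larger gates. Their 40 members together had a log2 ratio of 1.25 (0.88 to 1.62), with 538 CPM in the WT library and 1281 CPM in the library labelled Siah2-/-, whereas the pooled ratio lay below 0 in the other 7. They held 69 WT and 17 Siah2-/- cells, of which 5 and 4 were high (7.25% and 23.5%, with a ratio of 1.70, -0.63 to 3.92). Without thinning the share turned to -0.37 (-2.37 to 1.20), with 21 and 4 high cells. Smc4 was the 1 member with at least 30 UMIs, and its ratio was -0.17 (-1.60 to 1.03). Ptprc was at 0 and 13.1 CPM in them. The 10 macrophage markers summed to 187 and 680 CPM, the 6 Mgl2 and MHC class II markers to 358 and 1882, and the 9 stromal markers to 7188 and 4013, and their part in the ratio was not tested. The difference from the other gates was not tested.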

How the results depend on the processing

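No paired analysis was possible because each genotype had 1 library, and for the same reason no library could be left out. The libraries started at different UMI counts, and small gates held few UMIs. Depth, the limit of a high cell in NK and the mix of states in macrophages each moved values. Ratios are log2, Siah2-/- over WT, and the causes of the changes were not tested. One direction among the 7 larger gates turned in the medians, NK with the same lowest UMI count (0.04). Among the macrophage states, the median over all barcodes from 2000 UMIs turned in interferon macrophages (0.15, from -0.26), as it did without thinning (0.21). Without the 5% of cells of each library with most UMIs it moved the other way, to -0.81. The monocyte-like median, 0.23 over 4 members, was -0.11 from 2000 UMIs, -0.26 without thinning, -0.33 thinned to 2000 and -0.36 with a minimum of 10 UMIs. A further 122 values for the larger gates stayed within the counting interval of the reported value (counts within 1.5 times). That interval was wide in CD4 T, where the share went from -1.36 to -0.51 with the same lowest UMI count, and in DC.

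For the share of high cells, all barcodes from 2000 UMIs gave -0.60 in CD8 T, 0.46 in CD4 T, -0.15 in NK, -0.59 in Treg and -1.0 in macrophages. The same lowest UMI count gave -0.91 in CD8 T. A limit of at least 3 members gave -0.97 in CD8 T, -1.73 in DC, -0.24 in NK and -0.91 in macrophages, and at least 10 gave -0.32 in NK. Without thinning, Hmga2-positive CD45-negative cells gave -0.06. Macrophages weighted by the states of the WT library gave -0.37 and by those of the other -0.98, both chosen after seeing the data.

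For the median of the members, barcodes from 2000 UMIs gave -0.02 in CD4 T, -0.74 in Hmga2-positive cells, -0.60 in CD8 T, -0.50 in DC, -0.11 in NK, -0.76 in Treg and -0.85 in macrophages. No thinning gave -1.33, -1.56, -0.92 and -1.93 in the first 4 of these, -1.35 in Treg and -0.92 in macrophages. The same lowest UMI count gave -0.81 in CD4 T, -0.92 in CD8 T, -1.29 in Treg and -0.84 in macrophages. A second draw gave -1.32 in CD4 T, -0.90 in Hmga2-positive cells, -2.22 in DC, -1.79 in Treg and -1.13 in macrophages. Thinning to 2000 gave -0.84 in CD4 T, -0.50 in DC, -0.42 in NK and -1.21 in Treg. Marker minimums raised by 1 gave -1.04 in CD4 T, -1.18 in Hmga2-positive cells and -1.47 in Treg. Without the 5% of cells of each library with most UMIs it was -0.57 in Hmga2-positive cells, -1.45 in CD8 T and -1.22 in macrophages. Centring on all genes gave -1.23 in CD8 T, and a minimum of 10 UMIs -2.03 in DC.

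The number of members called lower, with barcodes from 2000 UMIs, was 0 of 10 in CD4 T, 18 of 36 in CD8 T, 1 of 3 in DC, 3 of 21 in NK and 10 of 14 in Treg. The share of all tested genes called lower was 7.54%, 6.13%, 10.3%, 3.55% and 9.36% there. A minimum of 10 UMIs gave 26 of 31 in CD4 T (31.3% of all genes), 17 of 20 in DC (16.1%), 11 of 39 in NK (7.55%) and 33 of 33 in Treg (20.8%). No thinning gave 24 of 28 (16% of all genes), 21 of 23 (10.3%), 12 of 38 (3.87%) and 32 of 32 (15%) in the same gates. Thinning to 2000 left few members to test and gave 4 of 7 in CD4 T (16.3% of all genes), 1 of 2 in DC (11.2%) and 7 of 8 in Treg (14.5%). A fold of 2 gave 17 of 32 in Hmga2-positive cells (5.07% of all genes), 3 of 26 in NK (0.811%) and 20 of 38 in macrophages (3.41%). Without the 5% of cells of each library with most UMIs, Hmga2-positive cells gave 10 of 22 (19.9%).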

Other observations

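Cells that fell in no gate also differed in their share of high cells. T cells in none of the CD8 T, CD4 T and Treg gates had 29.4% high cells (47 of 160) in the WT library and 7.85% (38 of 484) in the library labelled Siah2-/-. They had too few of these counts for a gate, or CD8 counts together with Cd4 or Foxp3. Barcodes with both T and macrophage markers had 25.7% (93 of 362) and 15.2% (61 of 402). The other cells in no gate had 16.9% (45 of 267) and 4.78% (17 of 356).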
